A study of Mus musculus with 21 samples.

Results

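Among mouse embryoid body cells that had switched on an Etv2 reporter and carried the receptor FLK1, this comparison set the cells without the receptor PDGFRalpha against the cells with it. It rests on 6 of the 21 RNA-seq libraries of the series, chosen by their labels: 3 replicates of PDGFRalpha-FLK1+ cells, called single positive or SP, and 3 of PDGFRalpha+FLK1+ cells, called double positive or DP, all sorted as Etv2-tdTomato positive. Every one of the 6 came from the embryonic stem cell line TGET, in which T is reported by GFP and Etv2 by tdTomato, and was taken from embryoid bodies, the cell aggregates in which stem cells differentiate, on day 4. The labels list no doxycycline for this line.

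The study profiled sorted mesoderm of the TGET line, of the wildtype line A2lox.Cre and of an Etv2-inducible line, with 3 libraries in each of 7 groups. Another 2 pairs of groups serve for comparison here: DP and SP cells of TGET that were Etv2-tdTomato negative, and DP and SP cells of wildtype embryoid bodies that were not split by a reporter. Doxycycline-induced iEtv2 SP cells, given 2 µg per ml from day 2.5 and collected on day 4, entered the estimate of spread in the wildtype set and nothing else. The labels do not say whether a line is 1 clone, whether T-GFP was gated, or whether replicates were separate cultures, so each p-value measures the spread between these libraries, which may be technical.

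PDGFRalpha is a receptor tyrosine kinase for platelet-derived growth factors, and early mesoderm that keeps it is known to give rise to paraxial and cardiac derivatives. FLK1, encoded by Kdr, is the main VEGF receptor and marks the mesoderm that makes blood, endothelium and heart. ETV2 is an ETS transcription factor that blood and endothelial cells need to form, and FLK1+ mesoderm is known to lose PDGFRalpha as it enters these lineages.

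The 6 libraries held 26808438 to 32284183 counts on genes, and 3 counts, which is the upper limit where none was seen, equalled 0.0929 to 0.112 CPM (counts per 1000000 after scaling the libraries), for counting error only. Replicates of a group correlated across genes at 0.990 to 0.994. Ribosomal RNA took 1.17% of the counts in SP replicate 3 (95% Wilson interval 1.16 to 1.17%) and at most 0.266% (0.264 to 0.267%) in the other 5 libraries. DP replicate 1 stood apart by gene length, as described with the genes of respiration below. Summed levels of 16 genes that mark embryonic feeder cells and fibroblasts were 495 to 703 CPM in DP and 307 to 387 CPM in SP. The 16 include Pdgfrb, and 7 of them averaged 1 CPM or more. Of 9 tested between SP and DP, 2 passed as lower and 0 as higher, and 4 changed upward. Mmp3 was at 0 in all 6 libraries. Raw counts in DP and SP were 2 and 0 for Dcn, 5 and 0 for Lum, 1 and 0 for S100a4 and 0 and 1 for Fap. Summed levels of pluripotency genes were 1670 to 2042 CPM in DP and 1562 to 1976 CPM in SP. The part of these differences between libraries in the results was not tested, but results that rest on SP replicate 3 or DP replicate 1 are given with and without them.

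The genes of the sort were read first. Pdgfra (ENSMUSG00000029231, mm10 chromosome 5, 75152292 to 75198215, plus strand) stood at 125, 170 and 154 CPM in DP replicates 1 to 3 and at 39, 47.6 and 25.8 CPM in SP replicates 1 to 3. The groups were far apart, with a log2 change of -2.00 ± 0.20 (SP over DP, ± standard error, n = 3 libraries per group; edgeR quasi-likelihood test, Benjamini-Hochberg adjusted p = 0.000164). In the same order of libraries, Kdr (ENSMUSG00000062960, chromosome 5, 75932827 to 75978458, minus strand) stood at 440, 533 and 340 CPM in DP and 600, 631 and 580 CPM in SP. Both gates required FLK1, and all 3 SP libraries still lay above all 3 DP libraries (0.46 ± 0.12, edgeR adjusted p = 0.0215). This call was lost without SP replicate 1 (adjusted p = 0.0569), SP replicate 2 (0.07) or DP replicate 1 (0.0542) or when the fit held the 6 libraries alone (0.0687), all by edgeR.

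The lineage factor itself followed the gate. Etv2 (ENSMUSG00000006311, chromosome 7, 30633616 to 30635852, minus strand) stood at 58.1, 68.9 and 48.3 CPM in DP and 79.6, 109 and 78.7 CPM in SP, although all 6 libraries were sorted as reporter positive. The groups did not overlap (0.61 ± 0.14, edgeR adjusted p = 0.0131, and 0.054 without SP replicate 2). T (ENSMUSG00000062327, chromosome 17, 8434423 to 8442496, plus strand), which marks nascent mesoderm and drives the line's second reporter, stood at 46.1, 43.9 and 23.5 CPM in DP and 57.9, 62.5 and 39.7 CPM in SP. Its groups overlapped, replicate 3 was the lowest in each, and the difference did not pass the test (0.50 ± 0.30, edgeR adjusted p = 0.294). T passed it without a filter on low counts (4.74e-08) and with the replicate number as a block (0.0015, both edgeR adjusted p).

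Across 17690 genes tested, 2456 (13.9%) passed an adjusted p of 0.05 by edgeR: 1229 were higher in SP (6.95%) and 1227 lower (6.94%). Changes of at least 2-fold leaned higher, with 266 genes up and 165 down. In bulk samples of this kind, fewer cells of a type and less RNA per cell cannot be told apart. The counts moved with the libraries: 1359 genes were called without SP replicate 1, 1593 without SP replicate 2, 1342 without SP replicate 3 and 1139 without both SP replicate 3 and DP replicate 1. Of the 266 genes at least 2-fold higher, 215 (80.8%) had their highest SP level in replicate 3, against 649 of all 1229 higher genes (52.8%). Protein-coding genes gave 1031 higher and 932 lower of 13744 tested, and pseudogenes 177 and 268 of 2544. Pseudogenes took 12.5 to 14.4% of the counts in the 6 libraries and 0.549 to 0.636% in the wildtype libraries. The cause of this gap was not tested, and the pseudogene calls are not read as expression of pseudogenes. With mitochondrial, ribosomal RNA and pseudogene rows left out, edgeR called 1919 of 15116 genes.

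Blood and endothelial regulators led the increases. The 12 largest increases were taken among called genes that averaged 5 CPM or more and whose groups did not overlap. They held the Ikaros factor Ikzf1, the progenitor factor Myb, the blood and endothelial factor Tal1, its co-repressor partner Cbfa2t3, the platelet and early blood integrin Itga2b, the endothelial cadherin Cdh5 and the endothelial factor Sox7. The other 5 were the amino acid transporter Slc7a8, the GABA and glycine vesicle transporter Slc32a1, the kinase Wnk4, the chloride channel protein Clic6 and the calcium pump Atp2a3. All 12 kept their call in each of 16 alternative settings. Non-overlapping groups were part of the rule of choice, and 32.4% of all genes tested met that condition.

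Ikzf1 stood at 0.221, 0.525 and 0.806 CPM in DP and 7.92, 8.08 and 22.5 CPM in SP (4.59 ± 0.57, edgeR adjusted p = 0.000574). Myb rose from 0.772, 0.787 and 1.05 CPM to 6.08, 6.56 and 18.2 CPM (3.55 ± 0.52, edgeR adjusted p = 0.00129). In both genes SP replicates 1 and 2 were close to each other and replicate 3 was well above them. The increase was not confined to low levels: Tal1 stood at 12.5, 13.7 and 20.9 CPM in DP and 97.7, 115 and 194 CPM in SP (3.11 ± 0.32, edgeR adjusted p = 0.000169). Cdh5, which holds endothelial cells together, went from 0.699, 1.16 and 2.2 CPM to 11.3, 12.3 and 23.1 CPM (3.49 ± 0.41, edgeR adjusted p = 0.00039). Replicate 3 was the highest library within each gate for these 4 genes, and the gates stayed far apart in every one.

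Slc7a8, an exchanger of neutral amino acids, had levels of 1.25, 2.06 and 2.79 CPM in DP and 19.4, 20.4 and 26.7 CPM in SP (3.43 ± 0.22, edgeR adjusted p = 1.22e-05). Wnk4, a kinase that regulates salt transporters, had 2.43, 3.03 and 4.52 CPM in DP and 23.5, 26.8 and 59.7 CPM in SP (3.45 ± 0.40, edgeR adjusted p = 0.000391). It lies 1.02 kb from Ramp2 on chromosome 11 (101246028 to 101259546 for Ramp2, 101260567 to 101277409 for Wnk4), and Ramp2, a partner of the adrenomedullin receptor in endothelium, rose too, from 3.75, 4.5 and 5.52 CPM to 12.9, 15 and 25.2 CPM (1.94 ± 0.26, edgeR adjusted p = 0.000836). Ramp2 shares 33.4% of its exon bases with Vps25 and only 26.6% of its 50-base windows are unique, so its reads could be split between genes. Slc32a1 (3.83 ± 0.60, edgeR adjusted p = 0.00183) shares 24.9% of its exon bases with a predicted gene on the other strand, and the strand setting of the counts is not given in the sources used here.

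**Figure D1:**
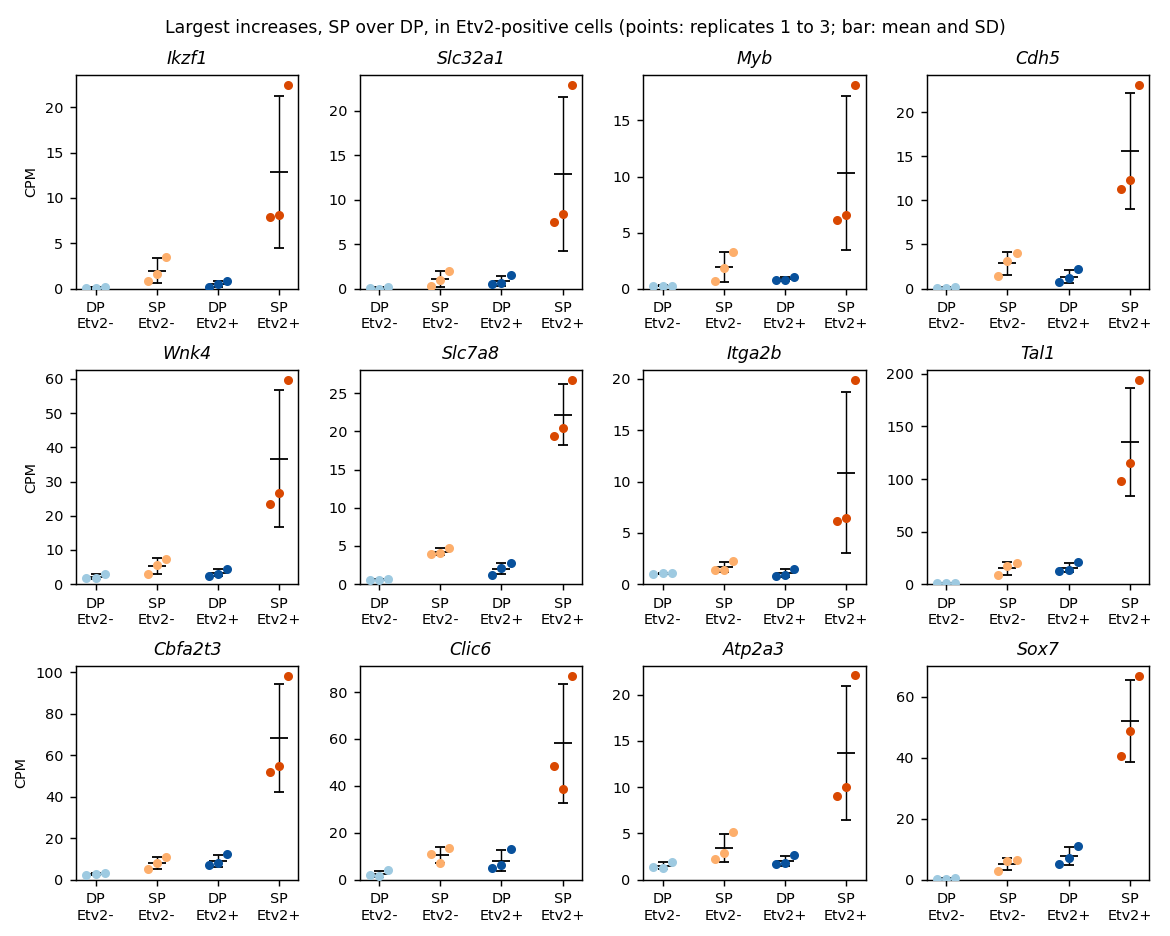
Level in CPM (y, linear axis from 0) in each library of the DP Etv2-negative, SP Etv2-negative, DP Etv2-positive and SP Etv2-positive groups (x), 1 panel per gene for the 12 largest increases; points are libraries and bars the mean and SD of 3. In every panel the 3 SP Etv2-positive libraries lie above the 3 DP Etv2-positive ones, as in Ikzf1 (7.92 to 22.5 against 0.221 to 0.806 CPM), and replicate 3 is often the highest.

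The list counts here and below stand beside all genes tested, of which 6.95% were called higher and 6.94% lower. Statements that groups did not overlap stand beside 15.9% of all genes tested that were higher without overlap and 16.5% that were lower. Higher calls went to 18 of 24 hematopoietic genes and lower calls to 0, with a median log2 change of 2.37 beside -0.01 over all genes tested. The count was 16 to 18 in every alternative setting, 18 without SP replicate 3 and 18 without both SP replicate 3 and DP replicate 1. Genes that carry out the first steps of blood formation were well above the detection limit. Gata2, a zinc finger factor of blood progenitors chosen after its values were seen, stood at 14.5, 14.1 and 17.3 CPM in DP and 63.8, 71.4 and 104 CPM in SP (2.38 ± 0.20, edgeR adjusted p = 5.8e-05). Lmo2, the bridging protein that joins TAL1 and GATA factors and also chosen after its values were seen, went from 13.1, 13.3 and 13.4 CPM to 55, 75 and 88.6 CPM (2.46 ± 0.22, edgeR adjusted p = 7.44e-05). Runx1, which the emergence of definitive blood requires and which was named in the same way, changed less, from 30.6, 36.1 and 25.3 CPM to 64.2, 50 and 62.8 CPM (0.95 ± 0.15, edgeR adjusted p = 0.00179).

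Factors of the red cell and platelet line were near the detection limit in DP. Gfi1b, a repressor needed for both lineages, had 13 counts in the 3 DP libraries together and 479 in the 3 SP libraries, or 0.221, 0 and 0.217 CPM against 3.65, 2.97 and 10.3 CPM (5.19 ± 0.73, edgeR adjusted p = 0.00104). Gata1, the main erythroid factor, went from 0.184, 0.187 and 0.279 CPM to 2.47, 1.97 and 6.34 CPM (4.01 ± 0.57, edgeR adjusted p = 0.00113). For both genes SP replicate 3 was the highest library, and the other SP libraries also lay above all DP libraries. Lyl1, a relative of Tal1, rose from 0.662, 0.862 and 0.806 CPM to 5.27, 6.56 and 14.7 CPM (3.50 ± 0.43, edgeR adjusted p = 0.000533). The 6 members that did not pass, named, like the uncalled members of other lists, after their values were seen, were Meis1 (-0.51), Cd93 (-0.14), Ldb1 (-0.05), Cd44 (0.01), Mecom (0.27) and Kit (0.28), all log2 changes. SP replicate 3 was the highest SP library for 20 of the 24 genes and DP replicate 3 the highest DP library for 18 of them.

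GATA factors bind the letters AGATAA and TGATAA, and since hematopoietic genes moved together their promoters were searched for these letters on both strands over the 250 bases before the start. Of the 18 higher genes, 14 had a window in the RefSeq table (GRCm38.p6) and 4 held the letters in a window. Among all 32851 windows in that table, 5452 held them (16.6%). The count of 4 is of genes and that of 5452 is of windows, and a gene with several windows has more chances of a match. The shares therefore cannot be compared, and whether the higher genes held the letters more often than other genes was not tested. The windows of these 4 genes are shown because they held the letters, and the size of the increase played no part. Each is given as 120 bases, 5′ to 3′ on the gene's strand, with the matched letters or their reverse complement in capitals. They are Gfi1b at chr2:28622040-28622159 (minus strand), Klf1 at chr8:84901845-84901964 (plus strand), Cbfa2t3 at chr8:122699165-122699284 (minus strand) and Tal1 at chr4:115056176-115056295 (plus strand). A match describes the letters only and is not a measured binding site.
Gfi1b: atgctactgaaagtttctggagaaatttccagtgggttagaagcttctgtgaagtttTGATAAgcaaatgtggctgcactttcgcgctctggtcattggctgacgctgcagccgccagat
Klf1: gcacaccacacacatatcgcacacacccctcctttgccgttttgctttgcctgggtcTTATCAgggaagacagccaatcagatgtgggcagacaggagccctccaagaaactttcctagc
Cbfa2t3: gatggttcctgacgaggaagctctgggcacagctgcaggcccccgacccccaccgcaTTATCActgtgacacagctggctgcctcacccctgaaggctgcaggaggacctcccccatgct
Tal1: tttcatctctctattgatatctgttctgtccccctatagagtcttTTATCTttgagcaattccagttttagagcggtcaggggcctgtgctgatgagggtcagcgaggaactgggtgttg

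Red cell products, by contrast, were scarce. Among 14 tested genes of primitive red cells and heme synthesis, 4 rose and 1 fell, with a median of 0.10. The embryonic globin Hbb-bh1 had 9 counts in the 3 DP libraries and 289 in the 3 SP libraries, at 0, 0.0749 and 0.217 CPM against 1.51, 1.93 and 6.71 CPM (4.98 ± 0.92, edgeR adjusted p = 0.00621). Alas2, the erythroid enzyme that starts heme synthesis, rose from 0.478, 0.487 and 1.08 CPM to 4.02, 4.75 and 12.4 CPM (3.33 ± 0.51, edgeR adjusted p = 0.00154), and the erythroid factor Klf1 from 0.0735, 0.112 and 0.124 CPM to 0.663, 0.853 and 3.67 CPM (4.01 ± 0.72, edgeR adjusted p = 0.00391). In all 3 genes SP replicate 3 was the highest library and no SP library reached down to DP. Heme enzymes that every cell uses were mostly not called: Alas1 (-0.04), Alad (-0.04), Fech (0.13) and Cpox (0.21) did not pass, and Urod was lower (-0.32 ± 0.08, edgeR adjusted p = 0.0158, and 0.0636 when the 6 libraries were fitted alone). Other globin genes were too low to test: Hbb-y had 0 counts in DP and 7 in SP, and Hba-x 0 and 1.

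Markers of mature white cells were few. Of 8 leukocyte signaling genes tested, 3 were higher and 1 lower. The actin bundling protein Lcp1 stood at 10.6, 11.8 and 10.9 CPM in DP and 26.6, 29.4 and 26.5 CPM in SP (1.31 ± 0.14, edgeR adjusted p = 0.000284), with little spread in either gate. Fyb, an adapter of T cells and platelets, went the other way, from 8.68, 5.69 and 6.54 CPM to 2.17, 2.6 and 2.81 CPM (-1.46 ± 0.19, edgeR adjusted p = 0.000719). Neither gene's groups overlapped, and both calls held in all alternative settings. The panleukocyte gene Ptprc had 0 counts in DP and 1 in SP, and Vav1, a signaling gene of all blood lineages, had 3 and 29, both too low to test.

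All 32 endothelial genes tested had a positive log2 change, 26 of them called and 0 lower, with a median of 1.31. The count was 24 without SP replicate 3, 24 without DP replicate 1 and 21 without both. SP replicate 3 was the highest SP library for 25 of the 32. Receptors of endothelial growth factors were among the higher genes: Flt1, the decoy VEGF receptor, went from 9.01, 12.3 and 14.5 CPM to 22.9, 28.9 and 44 CPM (1.42 ± 0.22, edgeR adjusted p = 0.00175), and Flt4, the receptor for VEGF-C, from 7.76, 9.63 and 6.97 CPM to 17.1, 20.8 and 17.6 CPM (1.19 ± 0.13, edgeR adjusted p = 0.00032). Esam, an endothelial junction protein that was near the detection limit in DP, went from 0.221, 0.112 and 0.465 CPM to 1.84, 2.86 and 4.15 CPM (3.40 ± 0.45, edgeR adjusted p = 0.000836).

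Transcription factors of endothelium were also called higher. Sox7 rose from 5.22, 7.08 and 10.9 CPM to 40.4, 48.7 and 66.8 CPM (2.74 ± 0.30, edgeR adjusted p = 0.00027), and the related Sox18 from 0.294, 0.337 and 0.248 CPM to 1.73, 2.48 and 2.95 CPM (3.02 ± 0.41, edgeR adjusted p = 0.000841). Sox17, the third gene of this SoxF subfamily, rose less, from 5.48, 7.38 and 6.11 CPM to 11.2, 12.2 and 14.4 CPM (1.00 ± 0.18, edgeR adjusted p = 0.00398). No SoxF gene had overlapping groups, beside 15.9% of all genes tested that were higher without overlap. Erg, an ETS factor that maintains endothelium, went from 0.257, 0.375 and 0.372 CPM to 2.47, 2.71 and 5.96 CPM (3.45 ± 0.44, edgeR adjusted p = 0.000717). Eng, a TGF-beta co-receptor, changed from 20.6, 18.2 and 23.6 CPM to 36.9, 35 and 35.4 CPM, with SP levels nearly equal (0.78 ± 0.11, edgeR adjusted p = 0.00101). Those not called were Gpr182, Robo4, Pecam1, Ets1, Ecscr and Cd34, with log2 changes of 0.14 to 0.87. Pecam1, a widely used endothelial marker, was thus at 0.22.

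VEGF ligands and receptors did not move as 1 block: of 14 genes, 6 were higher and 2 lower, with a median of -0.06. Both lower calls were lost without SP replicate 1, and the lower count was 1 without SP replicate 3, DP replicate 2 or DP replicate 3. The higher ones included the receptors Kdr, Flt1 and Flt4, the co-receptor Nrp2 (94.9, 129 and 104 CPM in DP, 167, 193 and 147 CPM in SP, 0.63 ± 0.13, edgeR adjusted p = 0.0064) and the calcium-regulated factor Nfatc1. Vegfa itself was called (0.74 ± 0.23, edgeR adjusted p = 0.0475) but not without SP replicates 1, 2 or 3 (0.0731, 0.0715 and 0.167) or DP replicates 1 or 2 (0.145 and 0.124). Of 12 arterial and venous genes, 5 were higher and 1 lower, with a median of 0.49, and 2 were lower without DP replicate 1. The arterial ligand Efnb2 rose from 75, 85.8 and 76.8 CPM to 133, 137 and 158 CPM (0.85 ± 0.11, edgeR adjusted p = 0.000554), the gap junction gene Gja4 from 0.478, 0.187 and 0.682 CPM to 1.66, 3.08 and 5.96 CPM (2.95 ± 0.52, edgeR adjusted p = 0.00348). The chemokine receptor Cxcr4 was lower, at 81.2, 77.9 and 58.5 CPM in DP and 51.9, 41.9 and 31.8 CPM in SP (-0.79 ± 0.16, edgeR adjusted p = 0.00768, and 0.0606 without both SP replicate 3 and DP replicate 1). The venous factor Nr2f2 had a log2 change of 1.27 that did not pass (edgeR adjusted p = 0.0898).

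The PDGF family split between its members. Besides Pdgfra, the sorted receptor, Pdgfrb, the second receptor of the family, was lower, at 80.3, 88 and 104 CPM in DP and 62.9, 57.2 and 42.3 CPM in SP (-0.75 ± 0.14, edgeR adjusted p = 0.00501). The ligand Pdgfb, which endothelium makes, was higher, at 18.3, 16.3 and 16.2 CPM in DP and 37.8, 33.2 and 30.9 CPM in SP (1.01 ± 0.13, edgeR adjusted p = 0.000758). Neither pair of groups overlapped. Pdgfc was lower (-0.93 ± 0.27, edgeR adjusted p = 0.0367) but not without SP replicates 1, 2 or 3 (0.0983, 0.0935 and 0.0902) or DP replicates 2 or 3 (0.0508 and 0.136), and Pdgfa (-0.17) and Pdgfd (-0.19) were not called. In the Notch pathway, 3 of 16 genes were higher and 2 lower, with a median of 0.03, and 2 higher and 1 lower without SP replicate 3. The ligands went both ways: Dll1 fell from 2.57, 3.41 and 1.61 CPM to 0.553, 0.705 and 0.891 CPM (-1.79 ± 0.35, edgeR adjusted p = 0.00585) and Jag2 rose from 3.6, 3.11 and 2.94 CPM to 6.01, 6.27 and 5.41 CPM (0.87 ± 0.20, edgeR adjusted p = 0.0141). Dll1 shares 20.5% of its exon bases with a gene on the other strand. The receptor Notch1 is described with the Etv2-negative cells below.

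The largest decreases were sorted into 2 kinds by their levels in the Etv2-negative cells, and not by a test. In one kind, the level was also lower in SP than DP without the reporter, and of the 4 reporter-line groups DP Etv2-negative cells had the highest mean. Pdgfra, Mesp1, Dll3, Gsc, Lefty2, Slit1 and Itga8 were of this kind. Mesp1, the transient factor of early cardiac and cranial mesoderm, stood at 48.2, 38.5 and 18.6 CPM in DP and 12.7, 14.4 and 8.63 CPM in SP (-1.56 ± 0.28, edgeR adjusted p = 0.00419), and without the reporter at 240, 195 and 175 CPM in DP and 70.6, 83.3 and 65.8 CPM in SP. Slit1, a secreted guidance cue, stood at 10.1, 15.9 and 8.71 CPM in DP and 3.46, 5.93 and 3.53 CPM in SP (-1.42 ± 0.24, edgeR adjusted p = 0.00274), and the integrin Itga8 at 10.1, 16.4 and 9.24 CPM and 3.87, 6.01 and 3.67 CPM (-1.40 ± 0.22, edgeR adjusted p = 0.00197). The 3 genes kept the call in every alternative setting, and in Mesp1 replicate 3 was the lowest library of each gate.

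Other calls of this kind rested on single libraries. Dll3, a Notch ligand of the forming somites, stood at 16.4, 17.6 and 7.1 CPM in DP and 4.75, 5.93 and 3.53 CPM in SP (-1.53 ± 0.35, edgeR adjusted p = 0.014, and 0.0583 without SP replicate 3). Gsc, an organizer homeobox gene, went from 8.05, 10.5 and 3.9 CPM to 2.03, 3.67 and 2.09 CPM (-1.52 ± 0.40, edgeR adjusted p = 0.0258). In both genes DP replicate 3 was well below the other DP libraries and closest to the SP libraries. Gsc lost its call without SP replicate 1 (0.0942), SP replicate 3 (0.0894), DP replicate 1 (0.0629) or DP replicate 2 (0.0822). The Nodal antagonist Lefty2 (-2.03 ± 0.62, edgeR adjusted p = 0.0449) lost it without any of SP replicates 1 to 3 (0.112, 0.0698 and 0.146) or DP replicates 1 and 2 (0.139 and 0.0991), and 88.1% of its windows were unique.

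In the other kind, the mean level was not lower in SP without the reporter. The difference of the SP over DP change with and without the reporter, tested below, was called for Epas1, Gucy1b1 and Tdo2. It was lost in 12, 10 and 10 of 21 alternative settings for these genes, and was not called for Snai2 or Itga4. Epas1, a hypoxia-inducible factor, stood at 12.9, 17.7 and 27.8 CPM in DP and 6.82, 6.3 and 6.2 CPM in SP (-1.60 ± 0.34, edgeR adjusted p = 0.00893), against 6.62, 12.6 and 20.8 CPM and 14.6, 17.2 and 16.2 CPM without the reporter. Snai2, a factor of epithelial to mesenchymal change, went from 9.71, 9.93 and 22.9 CPM to 2.95, 3.15 and 3.87 CPM (-2.10 ± 0.54, edgeR adjusted p = 0.0236). In both genes DP replicate 3 was the highest DP library while the SP libraries lay close together. Gucy1b1, a subunit of the nitric oxide receptor, went from 21.5, 22.7 and 39.9 CPM to 10.5, 9.35 and 11.1 CPM (-1.44 ± 0.37, edgeR adjusted p = 0.0217), Tdo2, which degrades tryptophan, from 10.4, 7.87 and 17.1 CPM to 4.72, 3.49 and 4.9 CPM (-1.43 ± 0.41, edgeR adjusted p = 0.0343), and the integrin Itga4 from 4.96, 9.44 and 14.3 CPM to 3.94, 3.71 and 3.29 CPM (-1.40 ± 0.40, edgeR adjusted p = 0.035).

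The same DP library was the highest in all 5 of these genes, and only the call of Epas1 held in every alternative setting. Without DP replicate 3 the edgeR adjusted p was 0.0868 for Snai2, 0.0798 for Gucy1b1, 0.122 for Tdo2 and 0.133 for Itga4. Without SP replicates 1, 2 and 3 in turn, these 4 genes had values of 0.0823, 0.0728 and 0.0572, of 0.067, 0.0734 and 0.054, of 0.0856, 0.109 and 0.0722, and of 0.0866, 0.0903 and 0.101. Tdo2 also lost its call without DP replicate 1 (0.0534) and Itga4 without DP replicate 2 (0.0614). Tdo2 and Gucy1b1 are neighbours on chromosome 3, 55.8 kb apart (81957090 to 81976202 and 82032006 to 82074689). The next gene, Gucy1a1, the partner subunit of Gucy1b1 and chosen after its values were seen, had levels of 6.58, 6.93 and 14.3 CPM in DP and 3.06, 2.23 and 6.1 CPM in SP and was not called (-1.29 ± 0.46, edgeR adjusted p = 0.0813).

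**Figure D2:**
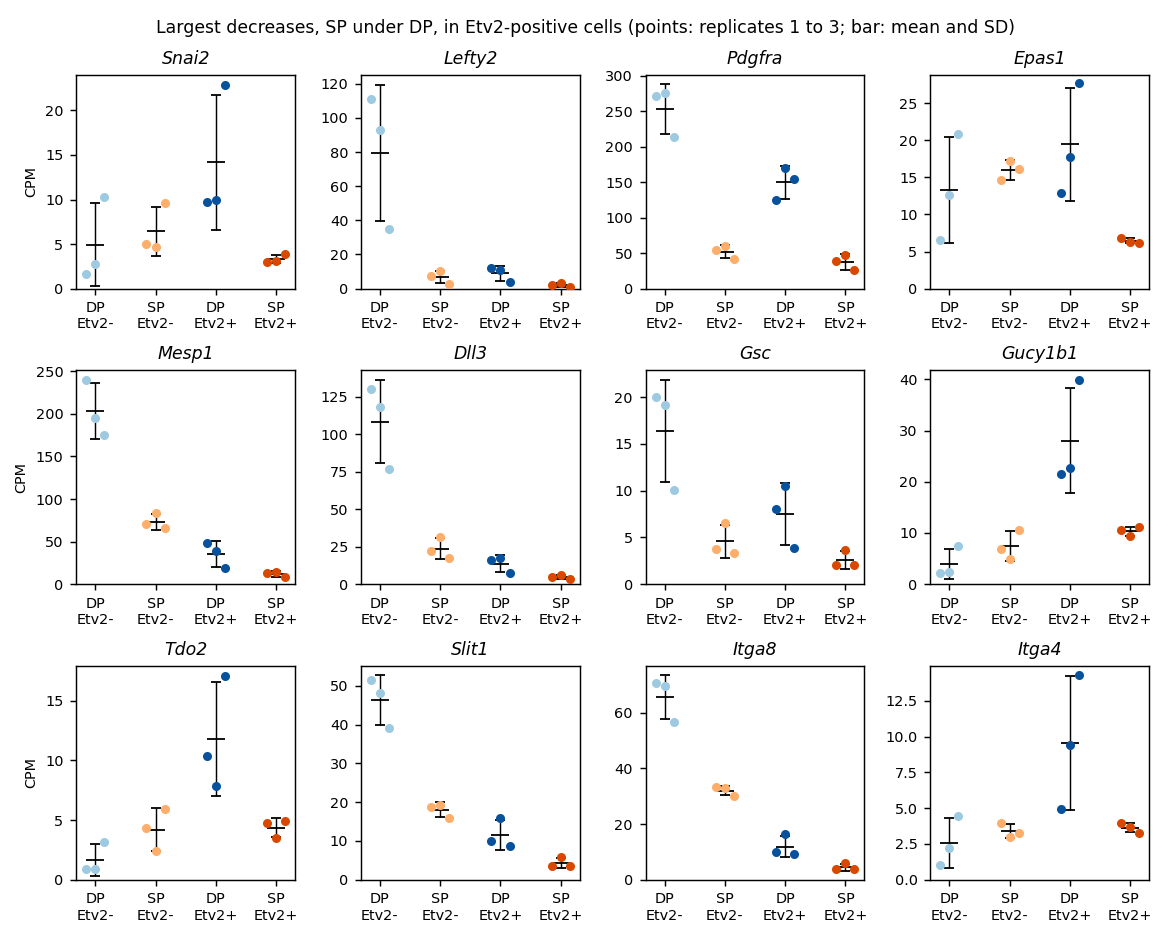
Level in CPM (y, linear axis from 0) in each library of the 4 reporter-line groups (x), 1 panel per gene for the 12 largest decreases; points are libraries and bars the mean and SD of 3. In genes such as Mesp1 the DP Etv2-negative libraries are the highest (175 to 240 CPM), while in Tdo2 the DP Etv2-positive libraries are (7.87 to 17.1 CPM), led by replicate 3.

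Paraxial mesoderm genes, which mark the cells that form somites, had 7 of 15 called lower and 1 higher, with a median of -0.88. The lower count was 2 without SP replicate 3 and 2 without both SP replicate 3 and DP replicate 1. Mesp2, which sets somite borders and lies 16.9 kb from Mesp1 on chromosome 7, went from 1.25, 1.2 and 0.837 CPM to 0.295, 0.445 and 0.377 CPM (-1.53 ± 0.32, edgeR adjusted p = 0.00864, and 0.0726 without both libraries). The protocadherin Pcdh8 (-2.17 ± 0.52, edgeR adjusted p = 0.0156) lost its call without SP replicate 1 (0.0574) or SP replicate 3 (0.0653), and Pcdh19 (-1.21 ± 0.28, edgeR adjusted p = 0.0133) without SP replicate 3 (0.0582). The key regulators Tbx6 (-0.99, edgeR adjusted p = 0.0677) and Msgn1 (-0.88, edgeR adjusted p = 0.17) did not pass. The exception was Rspo3, a Wnt agonist, which rose from 54.6, 56.8 and 56.3 CPM to 70, 87 and 108 CPM (0.66 ± 0.13, edgeR adjusted p = 0.00704, and 0.0522 without both libraries). Within the gates replicates differed: of 23 genes that mark the primitive streak or newly formed mesoderm, replicate 3 was the lowest library for 16 in DP and 17 in SP.

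That streak list had 5 genes lower and 0 higher, with a median of -0.57, with 1 lower without SP replicate 3 or DP replicate 1, 2 without SP replicate 1 or DP replicate 2, 3 without SP replicate 2, 8 without DP replicate 3 and 13 with no filter on low counts. Mesp1 was a member that held throughout. Lhx1 (67.6, 98.7 and 30.5 CPM in DP, 22.3, 26.1 and 27.7 CPM in SP, -1.37 ± 0.37, edgeR adjusted p = 0.03) lost its call without SP replicates 1, 2 or 3 (0.0996, 0.0758 and 0.0688) or DP replicates 1 or 2 (0.0659 and 0.106). Snai1 (55.2, 51.3 and 39.1 CPM in DP, 33.4, 31.8 and 21.6 CPM in SP, -0.75 ± 0.18, edgeR adjusted p = 0.0169) lost it without SP replicate 3 (0.0598) or DP replicate 1 (0.0563). Eomes (-0.52, edgeR adjusted p = 0.361), Mixl1 (-0.37, 0.567) and Nodal (-0.35, 0.42) were not called.

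Lateral plate and extraembryonic mesoderm had 6 of 22 genes lower and 0 higher (median -0.32), and 3 lower without SP replicate 2 or SP replicate 3. The homeobox gene Msx1, a BMP target, stood at 289, 263 and 230 CPM in DP and 195, 187 and 138 CPM in SP (-0.59 ± 0.11, edgeR adjusted p = 0.00556). Foxf1, a forkhead factor of splanchnic and allantois mesoderm, stood at 224, 182 and 215 CPM and 167, 125 and 109 CPM (-0.63 ± 0.15, edgeR adjusted p = 0.0167, and 0.0604 and 0.065 without SP replicates 2 and 3). No SP library of either gene reached a DP library. Hand1, a member with a role in the same tissue, had a log2 change of -0.37 (edgeR adjusted p = 0.107), and Bmp4 of 0.03.

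Mesenchyme and matrix genes had 5 of 20 lower and 0 higher (median -0.19), with 3 lower without SP replicate 3 and 2 without SP replicates 1 or 2 or DP replicate 3. Twist1, a basic helix-loop-helix factor of mesenchyme, stood at 23.3, 24.2 and 24.3 CPM in DP and 15.3, 18.8 and 15.4 CPM in SP (-0.54 ± 0.09, edgeR adjusted p = 0.00276). Postn, a matrix protein, had 107 counts in the 3 DP libraries and 15 in the 3 SP libraries (-2.72 ± 0.59, edgeR adjusted p = 0.0102). Both kept the call in each alternative setting in which they were tested. Fn1 (0.28), Vim (-0.17) and Sparc (-0.21), abundant genes of mesenchyme, were not called. Summed fibroblast markers moved with these genes, as given for the libraries above, and their part was not tested.

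Among cadherins and genes of epithelial to mesenchymal change, 4 of 21 were higher and 5 lower (median 0.05). The lower count was 1 without SP replicate 3, 2 without SP replicate 2 or DP replicate 3 and 3 without SP replicate 1 or DP replicate 1. The splicing regulator of epithelia Esrp1 rose from 1.32, 1.54 and 2.26 CPM to 4.27, 3.52 and 3.53 CPM (1.13 ± 0.21, edgeR adjusted p = 0.00487). Cdh1, the epithelial cadherin, was higher (0.83 ± 0.24, edgeR adjusted p = 0.0336) but not without SP replicates 1, 2 or 3 (0.114, 0.0707 and 0.0548) or DP replicates 1 or 2 (0.115 and 0.0572). The mesenchymal cadherins Cdh2 (-0.09) and Cdh11 (-0.36) did not pass.

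Basement membrane and integrin genes had 1 of 22 higher and 4 lower, beside 6.95% and 6.94% of all genes tested. Over all alternative settings 1 to 6 were higher and 2 to 5 lower. The lower count was 2 without SP replicates 1 or 3 or DP replicates 2 or 3, and the higher count 2 without either of these DP libraries. The integrin subunit Itgb3, the partner of Itga2b on platelets, was the higher one, at 0.368, 0.487 and 0.403 CPM in DP and 1.62, 1.67 and 4.11 CPM in SP (2.56 ± 0.41, edgeR adjusted p = 0.00197). Itga2b itself, the early blood marker CD41, went from 0.809, 0.899 and 1.49 CPM to 6.19, 6.49 and 19.9 CPM (3.33 ± 0.45, edgeR adjusted p = 0.000836). In both subunits SP replicates 1 and 2 were nearly equal and replicate 3 the highest. Itgb5 was lower, at 139, 132 and 132 CPM in DP and 107, 97.7 and 83 CPM in SP (-0.49 ± 0.09, edgeR adjusted p = 0.00581).

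Cardiac progenitor genes moved both ways, with 2 of 23 higher and 3 lower (median -0.17), beside 6.95% and 6.94% of all genes tested. Nkx2-5, the heart field homeobox factor, rose from 7.06, 7.01 and 6.23 CPM to 12.1, 13.3 and 12.5 CPM (0.90 ± 0.14, edgeR adjusted p = 0.00196). Isl1, a factor of the second heart field, fell from 7.21, 7.38 and 6.79 CPM to 5.2, 5.27 and 4.56 CPM (-0.51 ± 0.09, edgeR adjusted p = 0.00398). Both differences were larger than the narrow spread inside the gates and kept their call in every alternative setting. Tbx5 (0.44 ± 0.13, edgeR adjusted p = 0.0368) lost its call without SP replicates 1, 2 or 3 (0.114, 0.079 and 0.0875) or DP replicates 1 or 3 (0.122 and 0.102). Gata4 (0.04), Gata6 (-0.17) and Hand2 (-0.43, edgeR adjusted p = 0.0507) were not called.

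Of 13 sarcomere genes, which build the contractile apparatus of heart muscle, 2 were lower, Myl7 from 25.6, 18.9 and 17.5 CPM to 13.2, 12.3 and 11.9 CPM (-0.73 ± 0.17, edgeR adjusted p = 0.0143, and 0.0513 without SP replicate 3) and Tnnt2 (-0.74 ± 0.22, edgeR adjusted p = 0.0395), whose call was lost without SP replicates 1 to 3 (0.113, 0.0997 and 0.0871) or DP replicate 3 (0.158). Without SP replicate 3 edgeR called 0 of 13, and 5 had an unadjusted p under 0.05. The count was 1 without SP replicates 1 or 2 or DP replicate 3 and 4 without DP replicate 2. Of 12 smooth muscle genes, whose log2 changes were -0.52 to 0.38, edgeR and DESeq2 each called 0. At an unadjusted p under 0.05 they had 1 and 2, and edgeR with no filter on low counts called 3 lower and 1 higher. Acta2, the smooth muscle actin that early heart mesoderm also makes, was at -0.39 (edgeR adjusted p = 0.185).

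Pluripotency genes had 4 of 23 higher and 2 lower (median -0.28). Both lower calls were lost without SP replicate 1, SP replicate 3 or DP replicate 2, and the lower count was 1 without SP replicate 2 or DP replicate 1. The core factors Pou5f1 (-0.36, edgeR adjusted p = 0.315) and Nanog (-0.53, edgeR adjusted p = 0.228) were not called. Esrrb, an orphan receptor of naive pluripotency, rose from 0.809, 0.937 and 0.434 CPM to 1.73, 2.19 and 3.19 CPM (1.73 ± 0.30, edgeR adjusted p = 0.00332), and the Kruppel-like factor Klf5 from 11.4, 14 and 8.24 CPM to 24.2, 28.4 and 18 CPM (1.07 ± 0.22, edgeR adjusted p = 0.00815). Their groups did not overlap. Endoderm genes had 6 of 18 higher and 2 lower (median 0.35), with 3 higher without DP replicate 1 and 1 lower without SP replicates 2 or 3 or DP replicate 3, but Sox17 and Sox7 among them are endothelial genes too, and Foxa2 (0.26) and Hnf4a (-0.13) were not called. Apoa1, an apolipoprotein, was at 0.184 to 0.31 CPM in DP and 0.742 to 1.25 CPM in SP (2.06 ± 0.42, edgeR adjusted p = 0.00731, and 0.0694 without both SP replicate 3 and DP replicate 1).

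**Figure D3:**
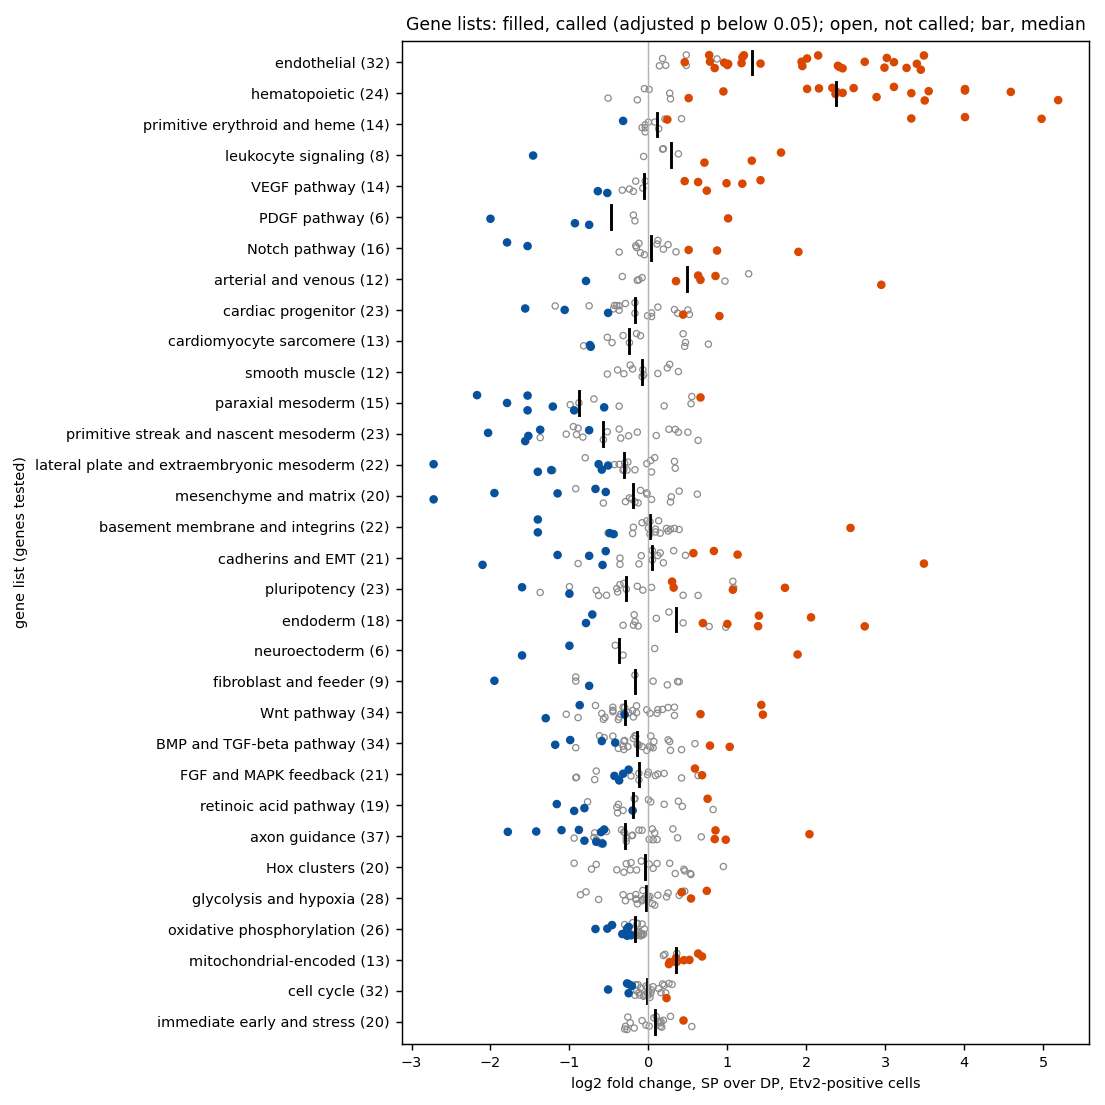
Log2 change of SP over DP in Etv2-positive cells (x) for every tested member of each gene list (y); filled points passed the edgeR test (orange higher, blue lower), open points did not, and the bar is the list's median. Hematopoietic (median 2.37) and endothelial (1.31) members lie to the right, paraxial mesoderm members (-0.88) mostly to the left, and most other lists are centred near the median of all genes, -0.01.

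In the Wnt pathway 3 of 34 genes were higher and 3 lower (median -0.30), near the shares among all genes tested (6.95% and 6.94%), and 1 was lower without SP replicate 1. The R-spondin receptor Lgr5 went from 10.2, 9.52 and 11.8 CPM to 27.5, 23.8 and 35.3 CPM (1.45 ± 0.16, edgeR adjusted p = 0.00025), the receptor Fzd10 from 17.1, 21.1 and 26.4 CPM to 44.9, 49.8 and 79.4 CPM (1.43 ± 0.20, edgeR adjusted p = 0.00111), and the secreted protein Dkk3 from 7.83, 8.65 and 13.6 CPM to 3.98, 3.97 and 4.32 CPM (-1.30 ± 0.27, edgeR adjusted p = 0.00787). All 3 had groups that did not overlap and kept their calls in every alternative setting. The third higher gene was Rspo3, given with the paraxial genes above. Of the 34 genes, 10 had a positive log2 change.

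In the BMP and TGF-beta pathway 2 of 34 genes were higher and 4 lower (median -0.15), and 1 higher and 3 lower without SP replicate 3. The higher count was near the share among all genes tested (6.95%, with 6.94% lower). The BMP antagonist Nog was lower, at 3.31, 4.05 and 3.47 CPM in DP and 1.81, 2.3 and 1.34 CPM in SP (-0.99 ± 0.19, edgeR adjusted p = 0.0046), as was the BMP-family ligand Gdf6, at 17.4, 16.9 and 21.4 CPM in DP and 10.9, 8.12 and 5.52 CPM in SP (-1.18 ± 0.27, edgeR adjusted p = 0.0133, and 0.0701 without both SP replicate 3 and DP replicate 1). Among FGF genes 2 of 21 were higher and 4 lower (median -0.12). Fgf3 was the one that held in every alternative setting, at 84.6, 68.9 and 80.3 CPM in DP and 104, 121 and 149 CPM in SP (0.68 ± 0.13, edgeR adjusted p = 0.0045). The FGF count was 1 higher and 1 lower without SP replicate 2, 1 higher and 3 lower without DP replicate 1 and 2 higher and 1 lower without DP replicate 2. Without SP replicate 3 edgeR called 1 higher and 0 lower, with 6 of the 21 at an unadjusted p under 0.05.

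Retinoic acid genes had 1 of 19 higher and 4 lower (median -0.20), beside 6.95% and 6.94% of all genes tested. The lower count was 1 without SP replicate 1 or SP replicate 3 and 2 without DP replicate 2, and the higher call was lost without SP replicates 1 or 2 or DP replicates 2 or 3. Crabp1, which binds retinoic acid in the cytoplasm, went from 21.2, 22.5 and 19.7 CPM to 11.3, 14.4 and 10.4 CPM (-0.81 ± 0.13, edgeR adjusted p = 0.00233). Aldh1a2, which makes retinoic acid, was lower too (-0.94 ± 0.25, edgeR adjusted p = 0.0249) but not without SP replicate 1 (0.0986), SP replicate 3 (0.072) or DP replicate 2 (0.0775). Of 20 Hox genes tested, edgeR and DESeq2 each called 0, with 3 and 2 at an unadjusted p under 0.05. With no filter on low counts edgeR called 2 higher and 1 lower. Over all alternative settings 0 to 4 were higher and 0 to 1 lower.

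Guidance cues and their receptors had 9 of 37 members lower and 4 higher (median -0.30), and 5 lower and 3 higher without SP replicate 1 or SP replicate 3. Slit3 stood at 36.4, 51.6 and 58.3 CPM in DP and 28.6, 27.9 and 23.2 CPM in SP (-0.88 ± 0.14, edgeR adjusted p = 0.00181), in the same direction as its relative Slit1 above. The plexin receptors Plxnd1 and Plxnc1 were higher. Plxnd1, which binds semaphorins on vessels, went from 42, 48.3 and 49.4 CPM to 81.5, 95.7 and 99 CPM (0.98 ± 0.08, edgeR adjusted p = 5.8e-05). Plxnc1 went from 0.735, 0.899 and 0.868 CPM to 2.21, 2.3 and 5.76 CPM (2.04 ± 0.36, edgeR adjusted p = 0.00381). The 4 genes kept their calls in every alternative setting.

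Genes of cell division gave 5 of 32 lower and 1 higher, and all 5 lower calls were lost without SP replicate 1 or SP replicate 2 (edgeR, with 10 and 11 of the 32 at an unadjusted p under 0.05). The lower count was 2 without SP replicate 3 or DP replicate 1 and 3 without DP replicate 2. Mcm2, a subunit of the replicative helicase, was the higher one, at 347, 342 and 350 CPM in DP and 393, 401 and 426 CPM in SP (0.23 ± 0.05, edgeR adjusted p = 0.0118, and 0.0561 without SP replicate 3). Cdk1, the mitotic kinase, was at 229, 190 and 205 CPM and 168, 168 and 182 CPM (-0.27 ± 0.06, edgeR adjusted p = 0.0158, and 0.0536 and 0.0511 without SP replicates 1 and 2). Their groups did not overlap, but the list's median was -0.02. Glycolysis and hypoxia genes had 3 of 28 higher and 0 lower, and 0 to 7 higher and 0 to 6 lower over all alternative settings. Without SP replicate 3, and likewise without DP replicate 1, edgeR called 0, with 8 and 7 at an unadjusted p under 0.05, and the count was 1 without SP replicate 2 or DP replicate 2. Of 20 immediate early and stress genes 1 was higher, Zfp36 (0.44 ± 0.13, edgeR adjusted p = 0.0373), a call lost without SP replicates 1 or 2 (0.114 and 0.124) or DP replicates 1 or 3 (0.118 and 0.0824). That count was near the share of higher genes among all tested (6.95%).

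Nuclear and mitochondrial genes of respiration differed in sign. All 26 nuclear genes of oxidative phosphorylation had a negative log2 change, of which 8 were called lower (median -0.17). Ndufa2, a complex I subunit, stood at 45.7, 36.4 and 35.1 CPM in DP and 22.2, 24.2 and 27 CPM in SP (-0.67 ± 0.10, edgeR adjusted p = 0.00173), and Cox6c, a subunit of cytochrome oxidase, at 55.4, 42.6 and 44.4 CPM and 31.3, 32 and 36.2 CPM (-0.52 ± 0.09, edgeR adjusted p = 0.00396). Sdhc of complex II was at 103, 98.4 and 91.3 CPM and 77.2, 78 and 77.5 CPM (-0.33 ± 0.06, edgeR adjusted p = 0.00269). DP replicate 1 was the highest DP library for 24 of the 26 genes and SP replicate 1 the lowest SP library for 23. The count was 4 lower without DP replicate 1 and 4 without SP replicates 1, 2 or 3. Without DP replicate 1 the calls of Ndufa2, Cox6c and Sdhc held.

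Of the 13 genes encoded by mitochondrial DNA, all had a positive log2 change and 10 were called higher (median 0.35). Mitochondrial transcripts took 2.94 to 3.08% of the counts in SP and 2.20 to 2.57% in DP. The complex I subunit mt-Nd2 stood at 1435, 1650 and 1246 CPM in DP and 2035, 2106 and 2080 CPM in SP (0.52 ± 0.08, edgeR adjusted p = 0.00173), and mt-Nd5 at 2010, 2306 and 1903 CPM and 2857, 2916 and 2732 CPM (0.45 ± 0.09, edgeR adjusted p = 0.00563). The SP libraries lay close together and above all DP libraries. The count was 7 without SP replicate 3 and 5 without both that library and DP replicate 1. In Etv2-negative cells all 13 had a positive log2 change as well, 1 was called higher (median 0.13), a call lost when any 1 Etv2-negative library other than SP replicate 3 was left out, and edgeR called 0 of the 13 differences between the gates, with 5 at an unadjusted p under 0.05, and 2 without DP Etv2-positive replicate 2. In wildtype cells edgeR called 0 of 10 such genes tested, with 0 at an unadjusted p under 0.05 and a median of -0.07.

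Gene length, as the summed exon length, moved with these genes. Among protein-coding genes of at least 20 CPM, the median deviation of DP replicate 1 from the mean of the 12 reporter-line libraries was 0.31 (log2) for genes under 1 kb and -0.18 for those over 8 kb. In SP replicate 1 the corresponding values ran the other way, from -0.11 to 0.07. Between the gates the median log2 change rose from -0.13 for the shortest to 0.08 for the longest genes, and from -0.04 to 0.02 without DP replicate 1. The part of gene length in the change of the respiration genes was not tested.

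**Figure D4:**
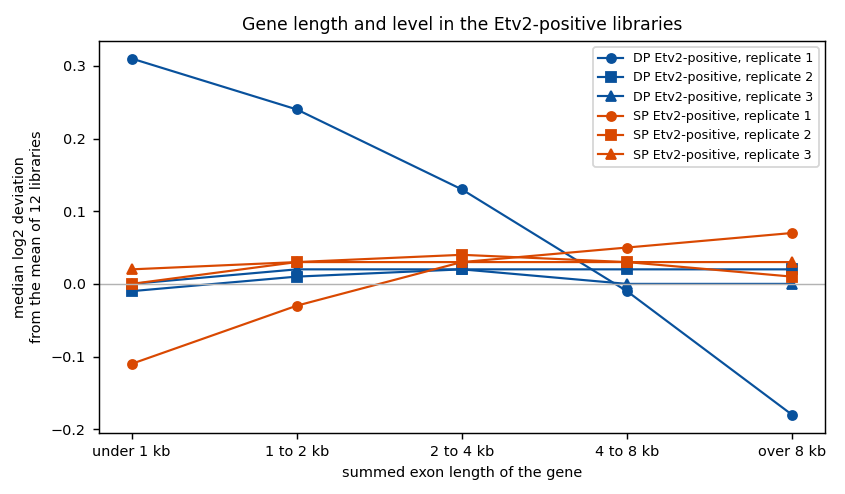
Median log2 deviation of genes from the mean of the 12 reporter-line libraries (y) by summed exon length class in kb (x), 1 line for each of the 6 Etv2-positive libraries. DP replicate 1 falls from 0.31 in the shortest to -0.18 in the longest class, further than the other libraries.

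The question whether the gate acted alike without the reporter was put to the same line, by testing the difference of the SP over DP change between Etv2-positive and Etv2-negative cells. It passed by edgeR for 702 of 17690 genes (3.97%), 269 with a larger value in Etv2-positive cells (1.52%) and 433 with a smaller one (2.45%). In Etv2-negative cells alone, 1936 genes (10.9%) were called, 1079 higher (6.1%) and 857 lower (4.84%). The 2 gate comparisons share no library. Of the 1229 genes higher in Etv2-positive SP, 220 (17.9%) were also higher in Etv2-negative SP, which is 20.4% of the genes higher there, and 13 were lower there. Of the 1227 lower, 241 (19.6%) were also lower there, 28.1% of the genes lower there, and 31 were higher there. Called or not, the log2 change in Etv2-negative cells had the same sign for 968 of the 1229 (78.8%) and 926 of the 1227 (75.5%). Over all 17690 genes tested, 8897 had a positive change in Etv2-negative cells. The count of 702 rested on single libraries more than the gate counts did, and was 114, 50 and 1268 without DP Etv2-negative replicates 1, 2 and 3, 143, 367 and 162 without SP Etv2-negative replicates 1, 2 and 3, 188 and 190 without SP Etv2-positive replicates 2 and 3, and 211 without DP Etv2-positive replicate 3. The 1936 calls in Etv2-negative cells became 1049 and 1092 without SP Etv2-negative replicates 1 and 3, and 787 and 815 without DP Etv2-negative replicates 1 and 2.

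Several genes rose with the reporter and had a negative log2 change without it. Inka1, an inhibitor of PAK4 kinase, had 6.07, 5.02 and 5.45 CPM in Etv2-positive DP and 13.1, 15.7 and 27.1 CPM in Etv2-positive SP (1.76), against 9.64, 8.35 and 6.93 CPM and 4.3, 6.89 and 6.92 CPM without the reporter (-0.45), and the difference was 2.21 (edgeR adjusted p = 0.0132). Dysf, a membrane repair protein, had a difference of 2.37 (1.99 against -0.38, edgeR adjusted p = 0.0132, and 0.0506 without DP Etv2-negative replicate 2). Nfatc1 went from 20.9, 26.2 and 21.3 CPM to 39, 45.1 and 52.1 CPM with the reporter (0.99 ± 0.13) and from 29.4, 32.9 and 25 CPM to 20.6, 22.9 and 19 CPM without it (-0.48), a difference of 1.48 (edgeR adjusted p = 0.00967). Without the reporter the change of Nfatc1 passed the test (edgeR adjusted p = 0.0307), and those of Inka1 (0.297) and Dysf (0.413) did not. The difference of Inka1 and Nfatc1 held in all 21 alternative settings.

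A pair of receptors of vascular development behaved in the same way. Notch1 stood at 33.7, 51.1 and 55 CPM in Etv2-positive DP and 59.9, 65.9 and 73.4 CPM in Etv2-positive SP (0.51 ± 0.13, edgeR adjusted p = 0.0259, and 0.0699 and 0.0935 without SP replicates 2 and 3). Without the reporter it stood at 101, 101 and 104 CPM in DP and 49.2, 50.7 and 52.6 CPM in SP (difference 1.51, edgeR adjusted p = 0.00967). Aplnr, the apelin receptor, was at 86, 88.6 and 89.7 CPM and 101, 104 and 132 CPM with the reporter (0.35) and at 229, 189 and 183 CPM and 115, 119 and 127 CPM without it (-0.73), a difference of 1.08 (edgeR adjusted p = 0.0106). Both differences held in all 21 alternative settings, while the rise of Aplnr itself did not hold without SP replicate 3 (0.151), DP replicate 1 (0.106), DP replicate 2 (0.0743) or DP replicate 3 (0.0712). In both genes the Etv2-negative DP libraries were the highest of the 4 groups.

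Blood and endothelial genes were called in the Etv2-negative gate too. Of 24 hematopoietic genes, 12 were higher there and 1 lower (median 1.16). Of 32 endothelial genes, 12 were higher there and 2 lower (median 0.72). Among all genes tested, 6.1% were higher there and 4.84% lower. Tal1 stood at 0.823, 1.08 and 0.741 CPM in Etv2-negative DP and 8.25, 16.9 and 20.4 CPM in Etv2-negative SP (4.09, edgeR adjusted p = 0.000258), and Ikzf1 at 0.118, 0.121 and 0.168 CPM and 0.861, 1.56 and 3.48 CPM (3.82, edgeR adjusted p = 0.0114). Their difference between the gates was not called (edgeR adjusted p = 0.401 and 0.811), although the levels without the reporter were far lower. Hhex, a homeobox gene of blood and endothelial precursors, went from 4.27, 4.46 and 5.21 CPM to 19.4, 23.4 and 41.7 CPM with the reporter (2.60) and had a log2 change of 0.86 without it (difference 1.73, edgeR adjusted p = 0.0294). This difference was lost without DP Etv2-positive replicate 3 (0.0547), SP Etv2-negative replicates 1 or 3 (0.0673 and 0.0593) or DP Etv2-negative replicates 1 or 2 (0.0789 and 0.0871). Of 24 hematopoietic genes 5 had a larger and 1 a smaller change with the reporter, and of 32 endothelial genes 4 had a larger and 0 a smaller one. All 6 hematopoietic calls of a difference were lost without DP Etv2-positive replicate 3, SP Etv2-negative replicate 1 or DP Etv2-negative replicates 1 or 2, and 1 to 5 larger ones were called without each other library. The endothelial count was 1 larger when SP Etv2-positive replicate 2 or 3, DP Etv2-positive replicate 1, SP Etv2-negative replicate 1 or 2 or DP Etv2-negative replicate 1 or 2 was left out, 2 without DP Etv2-positive replicate 3 or SP Etv2-negative replicate 3, and 3 to 6 without each other library.

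For other genes the sign was the reverse. Of the 1227 genes lower in Etv2-positive SP, 183 had a difference called below 0, and 154 of these had a positive log2 change without the reporter, which the test called for 31. Among the 1229 higher, 152 had a difference called above 0, and 106 of these had a negative change without it, called for 13. Spin2c, a spindlin family gene, stood at 89.7, 66.1 and 91.6 CPM in Etv2-positive DP and 44.1, 32.6 and 25.8 CPM in Etv2-positive SP (-1.27), against 17.3, 15.8 and 34.8 CPM and 56.7, 46 and 61 CPM without the reporter (1.27, difference -2.54, edgeR adjusted p = 0.0122). Ripor3 stood at 53.9, 48.8 and 65.9 CPM and 30.4, 27.5 and 24.6 CPM (-1.03), against 7.37, 6.81 and 15.6 CPM and 27.8, 22.3 and 31.1 CPM (1.44, difference -2.48, edgeR adjusted p = 0.0106). For both genes the Etv2-positive DP libraries were the highest of the 4 groups, Etv2-negative DP the lowest on average, and the difference held in all 21 alternative settings.

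Counts of called differences by list were as follows, and each moved with single libraries. Among all genes tested, 1.52% had a larger and 2.45% a smaller change with the reporter. Of 22 lateral plate and extraembryonic genes, 7 had a smaller change with the reporter and 0 a larger one (median difference -0.88). Their counts were 0 higher and 6 lower with the reporter and 7 higher and 2 lower without it. The 7 differences were lost without SP Etv2-negative replicate 1, DP Etv2-negative replicate 1 or DP Etv2-negative replicate 2, 12 were called without DP Etv2-negative replicate 3, and 1 to 8 without each other library. BMP and TGF-beta genes gave 8 smaller and 0 larger of 34, and all 8 calls were lost without DP Etv2-negative replicate 1 or 2, while 15 were made without DP Etv2-negative replicate 3 and 1 to 7 without each other library. Sarcomere genes gave 5 smaller and 0 larger of 13, and 1 smaller when SP Etv2-positive replicate 2, SP Etv2-negative replicate 1 or DP Etv2-negative replicate 1 or 2 was left out, and 2 to 6 without each other library. Paraxial mesoderm went the other way, with 3 larger and 0 smaller of 15, with 1 larger without DP Etv2-negative replicate 1 or 2 and 2 to 5 without each other library. It had 7 lower with the reporter (median -0.88) and 11 lower without it (median -2.09). Among these, Msx1 had a log2 change of -0.59 with and 0.22 without the reporter (difference -0.81, edgeR adjusted p = 0.0239, and 0.0583 to 0.0731 without SP Etv2-negative replicate 1 or DP Etv2-negative replicates 1 or 2), and the BMP-family ligand Gdf6 of -1.18 and 0.99 (-2.17, edgeR adjusted p = 0.0222, and 0.0503 to 0.0746 without SP Etv2-positive replicate 2, SP Etv2-negative replicate 1 or DP Etv2-negative replicates 1 or 2).

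**Figure D5:**
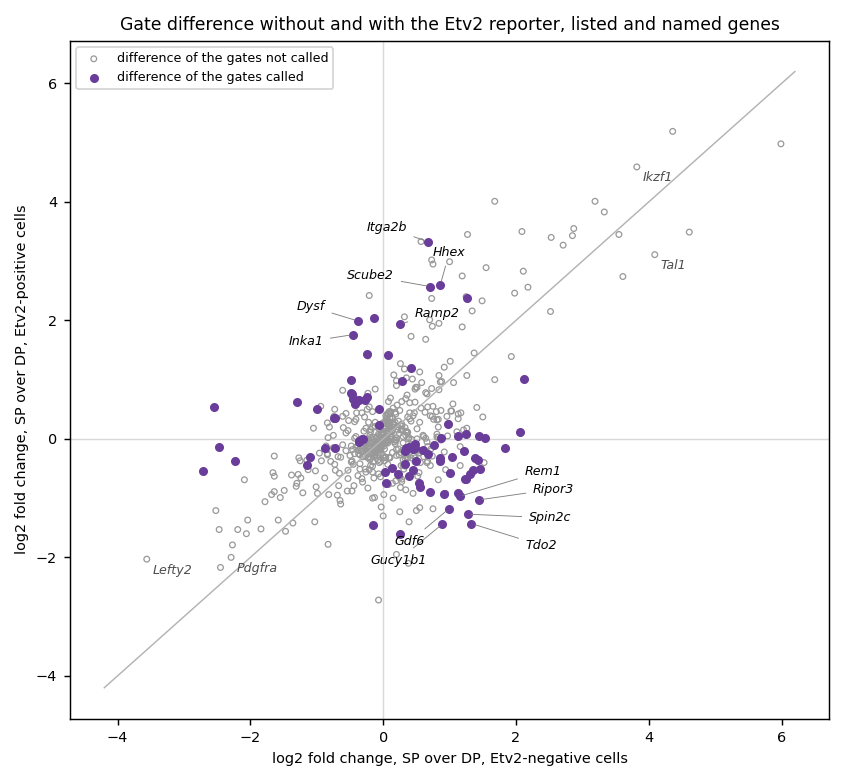
Log2 change of SP over DP in Etv2-negative cells (x) against Etv2-positive cells (y), 1 point per tested gene of the lists or named in the text; genes whose difference passed the edgeR test are purple, and the diagonal marks equal changes. Tal1 and Ikzf1 are high on both axes, Pdgfra low on both, and Spin2c and Ripor3 lie to the lower right, with values of -1.27 and -1.03 against 1.27 and 1.44.

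The unsplit wildtype gate, in another line and deposited as separate count files, is set beside these values with no test of the difference. Its libraries also held a far smaller share of pseudogene counts, as given above. There 2580 of 16288 genes (15.8%) were called, 1479 higher (9.08%) and 1101 lower (6.76%), and 1509 and 1525 without SP replicate 1 and DP replicate 3 of that set. Of the genes tested in both fits, 466 of 1105 higher in Etv2-positive SP (42.2%) were also higher in wildtype SP, 32.5% of those higher there, and 224 of 1030 lower (21.7%) were also lower, 20.5% of those lower there. Called or not, the wildtype change had the same sign for 913 of the 1105 (82.6%) and 673 of the 1030 (65.3%). Endothelial genes had 30 of 34 higher and 0 lower in wildtype cells (median 2.25), hematopoietic genes 19 of 23 higher and 2 lower (2.37), and paraxial mesoderm genes 0 higher and 11 of 16 lower (-2.09). Ikzf1 had a log2 change of 3.34 in wildtype beside 4.59 with the reporter, Tal1 3.51 beside 3.11, Pdgfra -2.99 beside -2.00, and Etv2 0.80 beside 0.61. The lateral plate list had 4 higher and 2 lower of 21 in wildtype cells (median 0.29), beside 0 higher and 6 lower of 22 with the reporter (-0.32).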

How the data were processed

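The authors deposited raw counts per gene for the 21 libraries, made per the labels from stranded total RNA libraries. The submitters' processing notes name mm10 and featureCounts. The aligner, annotation and strand setting are not given in the sources used here. The 9 wildtype and iEtv2 count files also hold rows of unmapped (3.953 to 5.247%), multimapping (7.337 to 8.747%), featureless (5.041 to 7.911%) and ambiguous reads (4.299 to 4.915%), which were left out of library sizes. GENCODE M21 named 55227 of 55487 gene IDs.

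Counts were tested with edgeR 4.0.16 (R 4.3.3; TMM scaling, filterByExpr, quasi-likelihood test, Benjamini-Hochberg adjustment over all genes tested, threshold 0.05). The 12 reporter-line libraries shared 1 fit with the Etv2-positive gate, the Etv2-negative gate and their difference as contrasts, and the 9 other libraries had their own. CPM used the scaled library sizes. Standard errors are the log2 change over the square root of the F statistic. The test was checked on simulated counts. Alternatives were other scalings, filters and fits, DESeq2 1.42.0, rows of mitochondrial, ribosomal and pseudogene RNA left out, each library left out in turn, the replicate number as a block and, chosen after seeing the data, 2 settings that leave out libraries that stand apart.

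Named were Pdgfra, Kdr, Etv2 and T, the 12 largest increases and decreases among called genes with a mean of 5 CPM or more and no overlap, up to 6 called members of each of 32 gene lists with exceptions in direction, and the 6 largest differences each way. The largest changes exclude predicted genes, ribosomal proteins, mt- genes and small RNAs. The members and lists were chosen with earlier results of these data known. Of 152 named genes, 8 had under 90% unique 50-base windows and 6 shared over 20% of their exon bases with another gene.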

Additional observations from a re-analysis of the deposited data

Results flagged for a closer look

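The tested difference of the gate effect between Etv2-positive and Etv2-negative cells passed an edgeR adjusted p of 0.05 for 38 of the named genes and is given here as a log2 difference (Etv2-positive minus Etv2-negative, 3 libraries in each of 4 groups). Of the 38, 7 kept this call in all 21 alternative settings, 31 lost it in at least 1, and 0 changed sign. The 7 were Aplnr (1.08), Fgf3 (1.13), Inka1 (2.21), Nfatc1 (1.48), Notch1 (1.51), Ripor3 (-2.48) and Spin2c (-2.54).

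Larger in Etv2-positive cells, with a call lost in at least 1 setting, were the blood and endothelial genes Itga2b (2.66), Hhex (1.73), Scube2 (1.87), Ramp2 (1.68), Flt1 (1.33), Flt4 (0.77), Apln (0.93), Plcg2 (0.95) and Plxnd1 (0.70). Other genes in this direction were Plxnc1 (2.17), Dysf (2.37), Fzd10 (1.67), Rspo3 (1.02), Cyp26c1 (1.21), Dusp4 (1.01), Lama1 (0.70) and Mcm2 (0.29). Lama1 had a negative log2 change in both sets, -0.44 with the reporter and -1.14 without it.

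Smaller in Etv2-positive cells, with a call lost in at least 1 setting, were the PDGF genes Pdgfc (-1.84), Pdgfb (-1.11) and Pdgfrb (-0.79), and the mesoderm and BMP genes Gdf6 (-2.17), Foxf1 (-1.02), Msx1 (-0.81) and Bambi (-0.75). Others in this direction were Tdo2 (-2.77), Gucy1b1 (-2.34), Rem1 (-2.12), Epas1 (-1.86), Fyb (-1.30), Tnnt2 (-1.28) and Itgb5 (-0.62). Pdgfb was higher in SP in both sets, by 1.01 with the reporter and 2.12 without it, and stood at 2.51, 2.02 and 3.06 CPM in Etv2-negative DP and 12.9, 10.9 and 9.18 CPM in Etv2-negative SP.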

How the results depend on the processing

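The 2456 calls of the Etv2-positive gate became 1324 when its 6 libraries were fitted alone, 1106 without the libraries of high ribosomal RNA share, 1139 without SP replicate 3 and DP replicate 1, and 431 at a minimum of 2-fold. With single libraries left out they ran from 1342 to 2403. A minimum of 2-fold gave 494 of 1936 calls in Etv2-negative cells, 269 of 702 for the difference and 888 of 2580 in wildtype cells. The difference had 1740 calls with no filter on low counts, 1269 with DESeq2, 119 without the libraries of high ribosomal RNA share and 271 without SP replicate 3 and DP replicate 1. Single libraries left out gave 787 to 2268, 50 to 1268 and 1509 to 2683 calls in those 3 comparisons. Leaving a library out lowers the number of samples, and the cause of the other shifts was not tested.

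The labels share replicate numbers but do not say whether replicates were separate cultures, and the main fits did not use the numbers as pairs. Same-numbered libraries correlated in their deviations at 0.0767, 0.134 and 0.269 in the Etv2-positive gate. The values were 0.0962, 0.264 and 0.334 in the Etv2-negative and 0.304, 0.342 and 0.0916 in the wildtype gate. With the replicate block there were 3370 calls in the Etv2-positive gate, 2788 in the Etv2-negative gate, 1537 for the difference and 3242 in wildtype cells. In all 3 gates every library correlated best with its own number, a hint from the data and not from the design. The p-values of the main fits leave out any such link.

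Of 151 named genes called in the Etv2-positive gate, 77 kept the call in each of the up to 16 alternatives that tested them and 74 lost it in at least 1. No named value reversed. List counts also rose in some settings. Lower calls reached 19 for guidance genes, 12 for lateral plate and extraembryonic genes, 11 for Wnt genes and 9 for pluripotency genes. T was called with no filter on low counts (edgeR adjusted p = 4.74e-08) and with the replicate block (0.0015), and the cause was not tested. Levels under about 0.1 CPM, the level of 3 counts, could not be told from 0 in a library at this depth. Which genes were tested was set by the filter on low counts and not by this level.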

Other observations

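Some named genes that changed the same way lie close together on mm10. Besides Ramp2 and Wnk4, Tdo2 and Gucy1b1, and Mesp1 and Mesp2, the collagen genes Col3a1 and Col5a2 on chromosome 1 are 24.6 kb apart.

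Several genes of early blood vessels and blood were too low to be tested, with raw counts summed over 3 libraries per gate. The Notch ligand Dll4 had 7 counts in DP and 39 in SP, the tight junction gene Cldn5 had 5 and 19, and the endothelial mucin Emcn had 1 and 5. The adult alpha globins Hba-a1 and Hba-a2, near-identical copies whose counts could be split between them, had 5 and 18, and 9 and 27. The blood cell GTPase Rac2 had 3 and 16. The ventricular muscle gene Myl2 went the other way, with 7 counts in DP and 0 in SP, where 3 counts is the limit that a count of 0 allows.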
